A study of Mus musculus with 6 samples.

Results

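The 10 long non-coding RNAs (lncRNAs) described here are Malat1, Neat1, Rmrp, Gm49540, 1700119I11Rik, A930028N01Rik, Gm11175, 1700018A23Rik, Gm15441 and Gm45507, out of 9413 lncRNA rows measured in mouse heart. They are a named set, taken from the lncRNAs with the highest mean level over all hearts after rows at loci classed as sarcomere loci were left out, with Neat1 added by name. Their levels and shares are therefore a description and are not tested. The comparison sets 3 I/R hearts (ischaemia and reperfusion) against 3 Sham hearts. All came from male mice and were isolated and perfused by the Langendorff method, in which a cannula in the aorta feeds the coronary vessels. In the I/R group cardioplegic solution arrested the heart for 30 min and reperfusion lasted 1 h, and in the Sham group contraction was not stopped. The labels state no strain, age or genotype, and isolated perfused hearts lack circulating blood and nerve supply. Levels are FPKM, in which fragments are divided by the length of the transcript and by a total, which for lncRNA rows was a total of lncRNA reads and for coding rows a separate, larger one. All 10 lncRNAs passed the filter of a mean of at least 0.5 FPKM, together with 12104 other features.

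Malat1 and Neat1 are neighbouring nuclear RNAs found in most mammalian cell types. Malat1 gathers in nuclear speckles, bodies rich in splicing factors, and its 3′ end is cut by RNase P rather than polyadenylated, which releases a small tRNA-like RNA. Neat1 is the scaffold of paraspeckles, nuclear bodies that hold back proteins and edited RNAs, and only its long form builds them. Rmrp is made by RNA polymerase III and is the RNA of RNase MRP, an enzyme that cuts precursor ribosomal RNA. Gm15441 lies antisense to Txnip and is known from mouse liver as a target of the nuclear receptor PPAR alpha. The other 6 have only systematic names, and no function is given for them here. The libraries were made from poly(A)-selected RNA, per the labels' protocols. How far this selection shaped the measured levels of RNAs that are not polyadenylated was not tested, so ranks and shares describe these libraries.

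Promoter windows, from 250 bases before to 50 bases after the annotated start, were taken from a RefSeq table on GRCm38.p6 for Malat1 and 1700018A23Rik. They are shown with the window of the coding gene Txnip, which lies inside the span of Gm15441 but is not the start of that lncRNA. Capitals mark the motif TGACG, the half-site of a cyclic AMP response element, and the motif CCAAT, each on either strand.
Malat1, chr19:5802623-5802922, minus strand: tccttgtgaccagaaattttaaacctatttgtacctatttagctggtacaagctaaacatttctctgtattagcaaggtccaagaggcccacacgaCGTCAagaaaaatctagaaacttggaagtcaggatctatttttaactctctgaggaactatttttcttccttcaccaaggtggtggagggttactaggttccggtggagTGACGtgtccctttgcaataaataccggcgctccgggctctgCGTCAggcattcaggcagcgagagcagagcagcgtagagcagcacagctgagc
1700018A23Rik, chr6:126821937-126822236, plus strand: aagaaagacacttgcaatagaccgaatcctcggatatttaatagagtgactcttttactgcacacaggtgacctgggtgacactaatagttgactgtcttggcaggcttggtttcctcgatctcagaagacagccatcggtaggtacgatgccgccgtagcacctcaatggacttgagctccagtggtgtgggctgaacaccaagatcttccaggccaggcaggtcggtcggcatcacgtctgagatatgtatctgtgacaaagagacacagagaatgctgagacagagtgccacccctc
Txnip, chr3:96557707-96558006, plus strand: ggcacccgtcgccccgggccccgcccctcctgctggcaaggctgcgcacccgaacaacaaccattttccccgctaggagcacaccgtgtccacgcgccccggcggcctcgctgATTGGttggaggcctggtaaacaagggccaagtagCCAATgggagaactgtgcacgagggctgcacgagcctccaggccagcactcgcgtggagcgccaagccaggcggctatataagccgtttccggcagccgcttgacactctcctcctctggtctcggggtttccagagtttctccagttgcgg
The RefSeq start of Malat1 is that of the deposited table, while that of 1700018A23Rik lies upstream of the table's. The Malat1 window lies in no RefSeq coding gene, has 47.0% G and C and holds TGACG 3 times. At least 1 TGACG was found in 20.8% of all 32851 windows of this length in the table, and at least 3 in 1.03%. The window of 1700018A23Rik (50.7% G and C) lies within the span of the coding gene Ndufa9 and holds neither motif. The Txnip window (65.3% G and C) holds CCAAT 2 times, and 37.4% of all windows hold it at least once. None of the 3 windows holds TATAAA (13.6% of all windows) or CACGTG (7.15%) on either strand.

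Ranked by length-scaled level, the label of most abundant fits only in part. Gm49540 was the highest of all lncRNAs in each of the 6 hearts, Rmrp ranked 3rd by mean FPKM, Malat1 4th and Neat1 15th. Ranked by the reads behind these values, which were recovered from the steps of the FPKM, Malat1 was 1st with 3359134 reads over the 6 hearts, Neat1 2nd with 1145467, Gm49540 3rd with 918261 and Rmrp 8th with 204450. The lengths by which the FPKM are divided were 6983 bases for Malat1, 20771 for Neat1, 638 for Gm49540 and 281 for Rmrp. The criterion for leaving rows out is not fully described by its name. Of the 13 rows with the highest mean FPKM, the 4 left out overlap the coding genes of titin (Gm13938, 50487 FPKM), phospholamban (Gm47644, 27323 FPKM), the alpha heavy chain of cardiac myosin (Gm49130, 8417 FPKM) and muscle creatine kinase (A930016O22Rik, 6573 FPKM), while 1700119I11Rik, which lies inside the gene of the mitochondrial creatine kinase, was kept. The lowest of the 9 chosen by level was Gm45507 at a mean of 4151 FPKM, and the next row, Gm43361, which overlaps the calcium pump gene Atp2a2, was at 3901 FPKM.

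**Figure D1:**
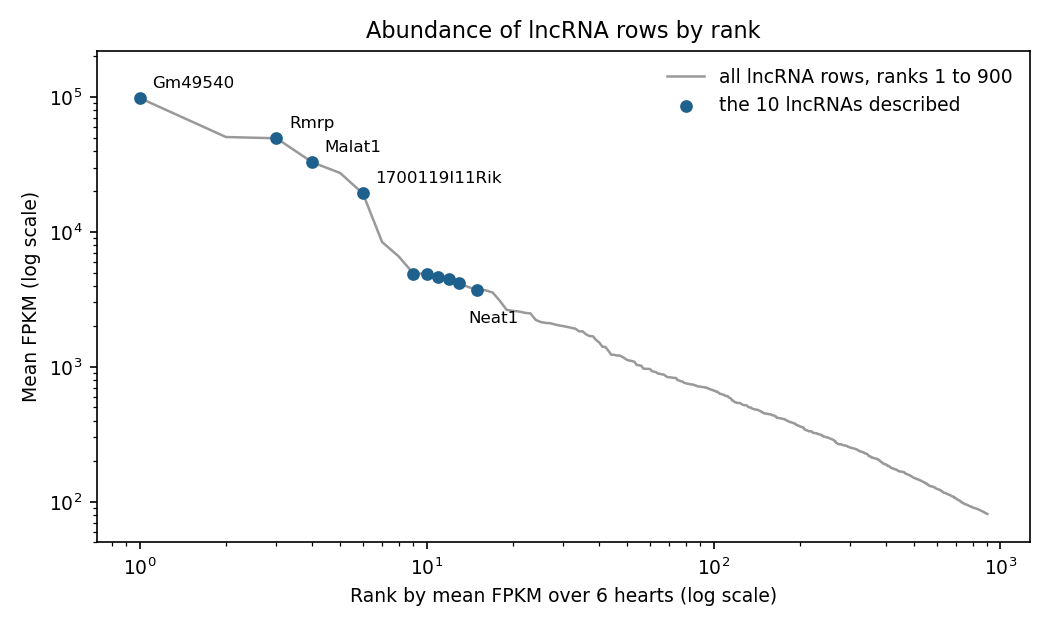
Mean FPKM over the 6 hearts (y, log scale) against rank by mean FPKM (x, log scale) for the lncRNA rows at ranks 1 to 900 (line) and for the 10 lncRNAs described (points). Gm49540 is at 98333, Rmrp at 49406, Malat1 at 32794 and 1700119I11Rik at 19267 FPKM, and the other 6 lie between 3718 (Neat1) and 4916 (A930028N01Rik).

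The 10 lncRNAs together held about the same share of the lncRNA signal in both groups. They took 33.6%, 31.3% and 33.1% of the summed lncRNA FPKM in I/R replicates 1, 2 and 3, against 32.3%, 33.9% and 33.0% in Sham replicates 1, 2 and 3. Their share of lncRNA reads was 40.8% ± 1.24 in I/R and 40.4% ± 0.447 in Sham hearts (SD, n = 3 each). Malat1 alone held 20.5% to 24.3% of lncRNA reads in I/R and 22.0% to 24.2% in Sham hearts, while its share of the FPKM was 4.26% to 5.13% in I/R and 4.52% to 5.13% in Sham hearts. Neat1 held 5.91% to 9.87% of the reads in I/R and 6.79% to 8.56% in Sham hearts. Rmrp held 6.59% to 7.13% of the FPKM in I/R and 6.79% to 8.12% in Sham hearts but 1.28% to 1.41% of the reads in I/R and 1.34% to 1.59% in Sham hearts. Since shares add to a whole, a gain by an abundant RNA lowers the share of every other.

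**Figure D2:**
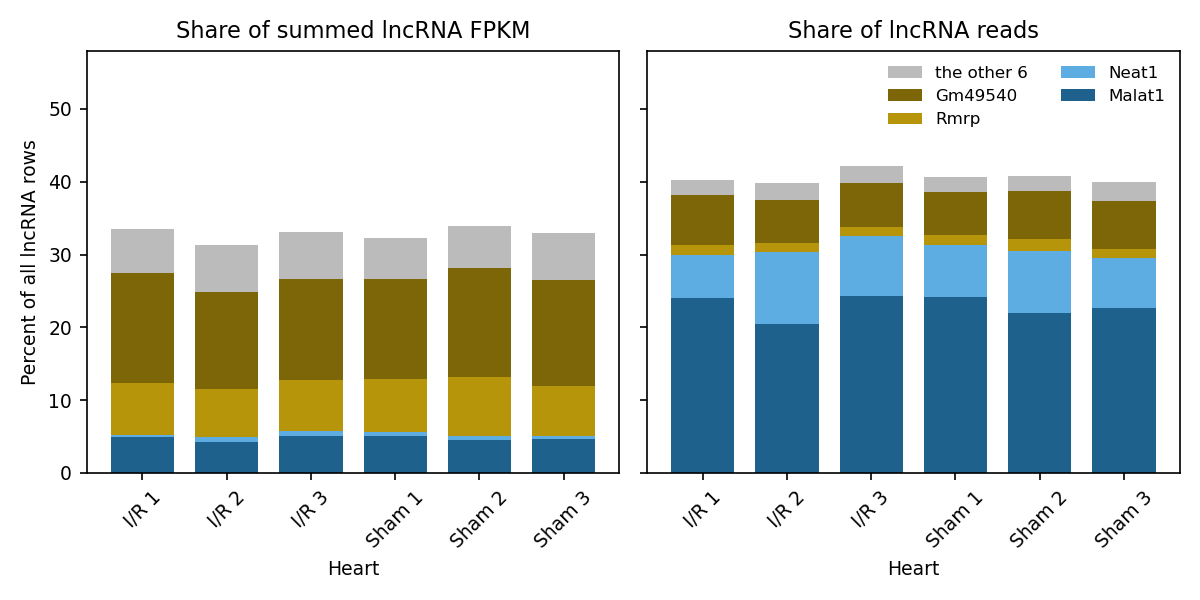
Percent of the summed lncRNA FPKM (left) and of the lncRNA reads (right) held by Malat1, Neat1, Rmrp, Gm49540 and the other 6 lncRNAs together, stacked for each heart on x. Malat1 and Neat1 fill most of the stack by reads and Gm49540 and Rmrp most of it by FPKM, in every heart.

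No difference between I/R and Sham hearts was called for any of the 10. Limma on log2(FPKM + 1), with Benjamini-Hochberg adjustment over 12114 features, gave 0 of 10 an adjusted p under 0.05, where 0% of all features had one. At an unadjusted p under 0.05 there was 1 of 10, Gm11175, beside 8.44% of all features (4.23% higher and 4.21% lower in I/R), and limma voom on the recovered reads also called 0 features after adjustment. Gm11175 was also the 1 of 10 whose groups did not overlap, beside 13.7% of all features (7.1% higher and 6.57% lower in I/R). Its place among the 10 rested on its I/R values: its Sham mean of 3531 FPKM lies below the 4046 FPKM of Gm43361, which was not chosen, so these counts carry no weight for the set. The median log2 change of the 10 was −0.02, with 4 values above 0 and 6 below, and that of all features −0.0022. Each change is the I/R mean less the Sham mean of log2(FPKM + 1), given ± SE, and group values are means ± SD with n = 3 hearts per group. The labels call the 3 hearts of a group biological replicates and say no more of their origin. In bulk tissue, fewer cells of a type and less RNA per cell cannot be told apart.

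**Figure D3:**
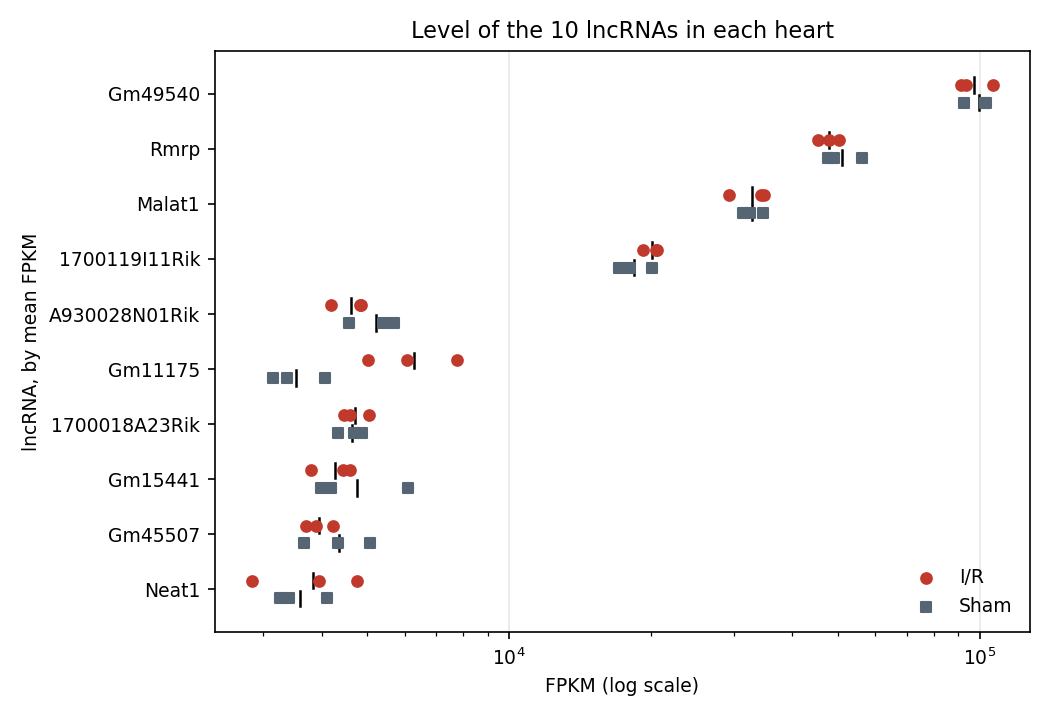
FPKM (x, log scale) of the 10 lncRNAs (y, by mean level) in each I/R heart (circles) and each Sham heart (squares), with the group mean as a vertical tick. The groups overlap for 9 of the 10, and the 3 I/R hearts lie above the 3 Sham hearts for Gm11175.

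Malat1 (ENSMUSG00000092341) spans GRCm38 chromosome 19 from 5795690 to 5802672 on the minus strand, and the length behind its FPKM is the whole span. RefSeq places the tRNA-like Mascrna inside it, from 5795924 to 5795981. It was at 34301, 29269 and 34767 FPKM in I/R replicates 1, 2 and 3, against 34577, 31402 and 32452 FPKM in Sham replicates 1, 2 and 3. I/R replicate 2 was the lowest of all hearts and I/R replicate 3 the highest, so the Sham hearts lay within the I/R range. The means were 32779 ± 3048 FPKM in I/R and 32810.0 ± 1617 in Sham hearts, a change of −0.0045 ± 0.092 (limma, adjusted p = 0.994). The 95% interval of the fold runs from 0.857 to 1.16. The highest heart was 1.19 times the lowest. With 458959 reads or more per heart the counting error was 0.00194 on the log2 scale, and the spread within groups was 0.110 (SD).

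Neat1 (ENSMUSG00000092274) lies on the same strand of chromosome 19, from 5824708 to 5845478, and its FPKM too are per base of the whole span, so they do not separate the short from the long form. Its levels varied more within groups than those of any other of the 10. Neat1 was at 2840.1, 4744 and 3939 FPKM in I/R replicates 1, 2 and 3, against 3411, 4113 and 3262 FPKM in Sham replicates 1, 2 and 3. The I/R hearts held both the lowest and the highest value, and the Sham hearts lay between them. The change was 0.07 ± 0.19 (limma, adjusted p = 0.948), with a 95% interval of the fold from 0.765 to 1.44, and it was −0.10 without I/R replicate 2 and −0.05 after quantile normalization. The spread within groups was 0.293 on the log2 scale, larger than that of 47 of the 56 lncRNAs with a mean of at least 1000 FPKM, while the counting error was 0.00341.

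Per base of the whole span, Neat1 was a small part of Malat1 in every heart. By reads it was a larger part, 24.6% to 48.2% of Malat1 in I/R and 29.3% to 39.0% in Sham hearts. The ratio of Neat1 to Malat1 FPKM was 8.28%, 16.2% and 11.3% in I/R replicates 1, 2 and 3, against 9.87%, 13.1% and 10.1% in Sham replicates 1, 2 and 3. I/R replicate 2, which had the lowest Malat1, had the highest Neat1. The log2 ratio was −3.12 ± 0.485 in I/R and −3.20 ± 0.229 in Sham hearts (SD, n = 3 each; difference 0.08, exact permutation test, two-sided p = 0.80, where 3 against 3 allows no p below 0.10). No listed coding gene overlaps either RNA. The nearest listed on one side is Frmd8, 4224 bases from Neat1, at 8.23 ± 0.876 FPKM in I/R and 8.69 ± 0.984 in Sham hearts (−0.07 ± 0.17), and on the other Fam89b, which had 0 reads in I/R and 1 in Sham hearts.

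**Figure D4:**
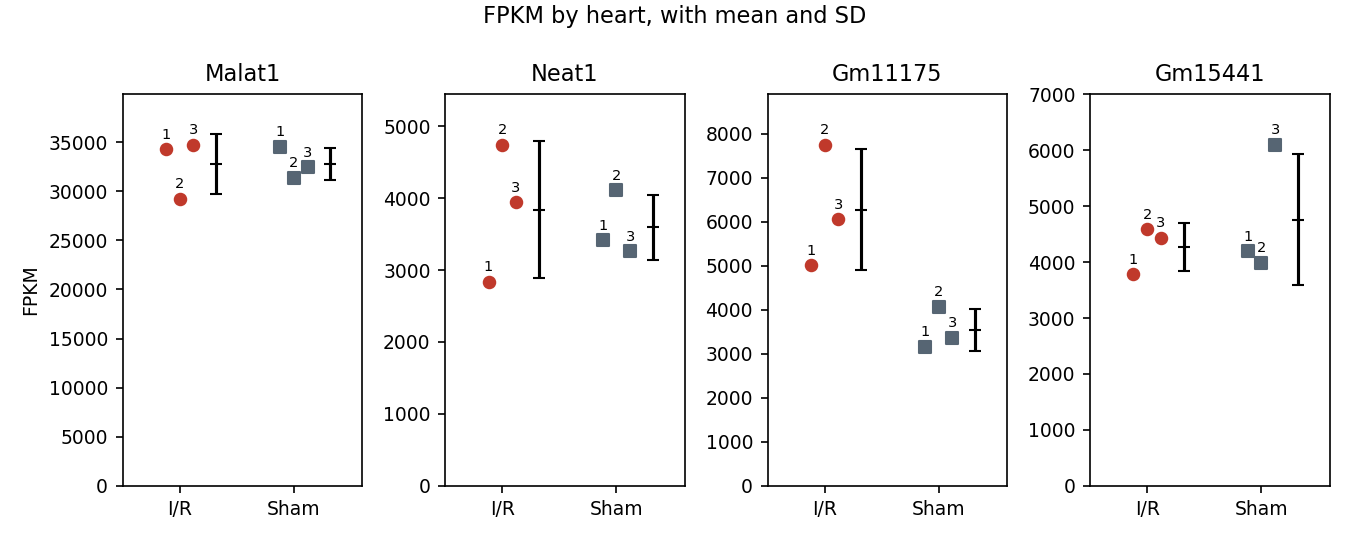
FPKM by heart (y, from 0) of Malat1, Neat1, Gm11175 and Gm15441 in I/R hearts (circles) and Sham hearts (squares), numbered by replicate, with mean and SD beside each group. Gm11175 averaged 6278 in I/R and 3531 in Sham hearts with no overlap, Neat1 was lowest and highest in I/R hearts, and Gm15441 was highest in Sham replicate 3.

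Rmrp (ENSMUSG00000088088) spans 271 bases of the minus strand of chromosome 4, from 43492788 to 43493058, 10 bases fewer than the length behind its FPKM. It was at 50204, 45308 and 47809 FPKM in I/R replicates 1, 2 and 3, against 49150.1, 56359 and 47607 FPKM in Sham replicates 1, 2 and 3. Sham replicate 2 was the highest and I/R replicate 2 the lowest heart, and the groups overlapped. The means were 47774 ± 2448 FPKM in I/R and 51039 ± 4671 in Sham hearts, a change of −0.09 ± 0.09 (limma, adjusted p = 0.841) with a 95% interval of the fold from 0.809 to 1.09. The nearest listed coding genes are Cd72, 38160 bases away, and Tln1, the gene of the cytoskeletal protein talin, 38461 bases away. Tln1 was at 104 ± 1.69 FPKM in I/R and 100.1 ± 6.16 in Sham hearts.

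Gm49540, the lncRNA with the highest FPKM, is listed without coordinates or Ensembl identifier. It was at 106603, 91424 and 93570.0 FPKM in I/R replicates 1, 2 and 3, against 92466, 103154 and 102784 FPKM in Sham replicates 1, 2 and 3. The highest and the lowest heart were both I/R hearts, and they differed 1.17-fold. The change was −0.03 ± 0.09 (limma, adjusted p = 0.946), with a 95% interval of the fold from 0.841 to 1.13. It had 442393 reads over the I/R hearts and 475868 over the Sham hearts.

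Each of the 6 remaining lncRNAs overlaps a coding gene annotated on the opposite strand. Of the 9 with coordinates described here, 6 overlap the span of a RefSeq coding gene on either strand (66.7%), beside 80 of the 90 with coordinates among the 100 most abundant lncRNAs (88.9%) and 5168 of all 8615 with coordinates. The choice partly sets the first share, since it left out 4 abundant rows that overlap coding genes and added Neat1, which overlaps none. Whether reads were counted by strand is not stated, and without strand the reads of a gene and its antisense partner cannot be told apart. The spans of 5 of the 6 lie wholly inside the coding gene, while that of Gm15441 holds all of Txnip, which makes up 35.3% of it. The length behind the FPKM was 14.0% to 59.1% of the span in these 6. Jund and Ckmt2 are not among the listed coding genes, and the listed transcripts of Ndufa9, Txnip and Bnip3 had fewer reads than the overlapping lncRNA. Listed coding transcripts held 36.8% to 39.9% of the coding reads, so the reads of these genes as a whole are not known.

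Gm11175 (ENSMUSG00000080058) lies on the minus strand of chromosome 8, from 70699162 to 70700080, inside Jund, the gene of the AP-1 transcription factor JunD on the plus strand. It was at 5019, 7756 and 6058 FPKM in I/R replicates 1, 2 and 3, against 3156, 4068 and 3369 FPKM in Sham replicates 1, 2 and 3. Every I/R heart was above every Sham heart, and its rank by level ran from 7 to 17 over the hearts. As its I/R values brought it into the set, the difference is given as a description of this RNA. The means were 6278 ± 1382 FPKM in I/R and 3531 ± 477 in Sham hearts, a change of 0.82 ± 0.17, or 1.76-fold with a 95% interval from 1.32 to 2.34 (limma, unadjusted p = 0.00228, adjusted p = 0.386). It had 24705 reads over the I/R hearts and 14476 over the Sham hearts, so the counting error, 0.0189 on the log2 scale, was small beside the spread of 0.260 within groups. With each heart left out in turn the change ranged from 0.65 to 0.97 and the adjusted p from 0.247 to 0.682, and over the other settings the adjusted p ranged from 0.167 to 0.495. The summed FPKM of 6 listed fibroblast markers was 293 to 333 in I/R and 209 to 285 in Sham hearts. That of 4 listed macrophage markers was 1096 to 1191 in I/R and 885 to 1064 in Sham hearts. Most of the first sum was Col1a1, Lum and Col3a1, and most of the second was Lyz2. Of the 5 fibroblast markers tested 2 were higher in I/R by limma at an unadjusted p under 0.05, and of the 4 macrophage markers 1. Over all features 4.23% were higher at that threshold. Pdgfra, another fibroblast marker, differed by −0.01 ± 0.29. The 9 listed ventricular cardiomyocyte markers had a median change of −0.33, with 6 of 9 values below 0, while Ryr2, Tnnc1 and Fabp3 were above 0. By limma 2 of the 9 were lower in I/R at an unadjusted p under 0.05, beside 4.21% of all features. They were Pln (68.2 ± 14.0 FPKM in I/R and 116 ± 15.8 in Sham hearts) and Tnnt2 (28.7 ± 3.89 FPKM in I/R and 39.95 ± 2.14 in Sham hearts). Some of the 9 had few reads, such as Tnni3 with 10 over the I/R and 26 over the Sham hearts. All marker values are those of listed transcripts. Such transcripts held 36.8% to 39.9% of the coding reads, so they need not show the level of the whole gene. No marker of these lists was at 0 in all hearts, and their part in the difference of Gm11175 was not tested.

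1700119I11Rik (ENSMUSG00000082488) lies on the plus strand of chromosome 13, from 91861432 to 91862044, inside Ckmt2, which encodes the mitochondrial creatine kinase of striated muscle. It was at 20580.3, 19238 and 20492 FPKM in I/R replicates 1, 2 and 3, against 17114, 18082 and 20095 FPKM in Sham replicates 1, 2 and 3. The groups overlapped through Sham replicate 3. The change was 0.13 ± 0.08 (limma, adjusted p = 0.739; 95% interval of the fold from 0.953 to 1.25), the largest positive change of the 10 after that of Gm11175.

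A930028N01Rik (ENSMUSG00000114796) lies on the plus strand of chromosome 19. It was at 4175, 4848 and 4820.2 FPKM in I/R replicates 1, 2 and 3, against 4559, 5683 and 5408 FPKM in Sham replicates 1, 2 and 3. The groups overlapped, with a change of −0.17 ± 0.11 (limma, adjusted p = 0.725). I/R replicate 1 was the lowest heart and Sham replicate 2 the highest. The 95% interval of the fold runs from 0.740 to 1.06. It had 13996 reads over the I/R hearts and 16493 over the Sham hearts.

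1700018A23Rik (ENSMUSG00000107368), on the plus strand of chromosome 6 from 126822377 to 126825177, lies inside Ndufa9, which encodes a subunit of respiratory complex I. It was the steadiest of the 10, at 5033, 4601 and 4452 FPKM in I/R replicates 1, 2 and 3, against 4340.3, 4688 and 4862 FPKM in Sham replicates 1, 2 and 3. The highest heart was 1.16 times the lowest, with a change of 0.02 ± 0.08 (limma, adjusted p = 0.973). What is listed of Ndufa9 was at 11.4 ± 0.204 FPKM in I/R and 10.8 ± 1.61 in Sham hearts (0.08 ± 0.16). These listed transcripts had 400 reads over the I/R hearts and 420 over the Sham hearts. The lncRNA had 13356 and 13798 in the same groups.

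Gm15441 (ENSMUSG00000074398) runs on the minus strand of chromosome 3 from 96555765 to 96566801, across Txnip, whose protein binds thioredoxin and limits glucose uptake. It was at 3786, 4590.4 and 4434 FPKM in I/R replicates 1, 2 and 3, against 4192, 3991 and 6102 FPKM in Sham replicates 1, 2 and 3. Sham replicate 3 stood above the other 5 hearts. The change was −0.14 ± 0.17 (limma, adjusted p = 0.888; 95% interval of the fold from 0.686 to 1.21), and it was 0.06 without Sham replicate 3. It had 50791 reads over the I/R hearts and 57652 over the Sham hearts, while the listed transcript of Txnip had 6 in I/R and 13 in Sham hearts.

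Gm45507 (ENSMUSG00000109881), on the plus strand of chromosome 7 from 138890964 to 138894675, lies inside Bnip3, a hypoxia-induced gene of mitophagy and cell death. It was at 3887, 3694 and 4235 FPKM in I/R replicates 1, 2 and 3, against 4334, 3676 and 5076 FPKM in Sham replicates 1, 2 and 3. As with Gm15441, Sham replicate 3 was the highest heart. The change was −0.14 ± 0.13 (limma, adjusted p = 0.829; 95% interval of the fold from 0.738 to 1.12). The listed transcript of Bnip3 had 40 reads over the I/R hearts and 61 over the Sham hearts (−0.26 ± 0.50, with a 95% interval from −1.46 to 0.93).

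**Figure D5:**
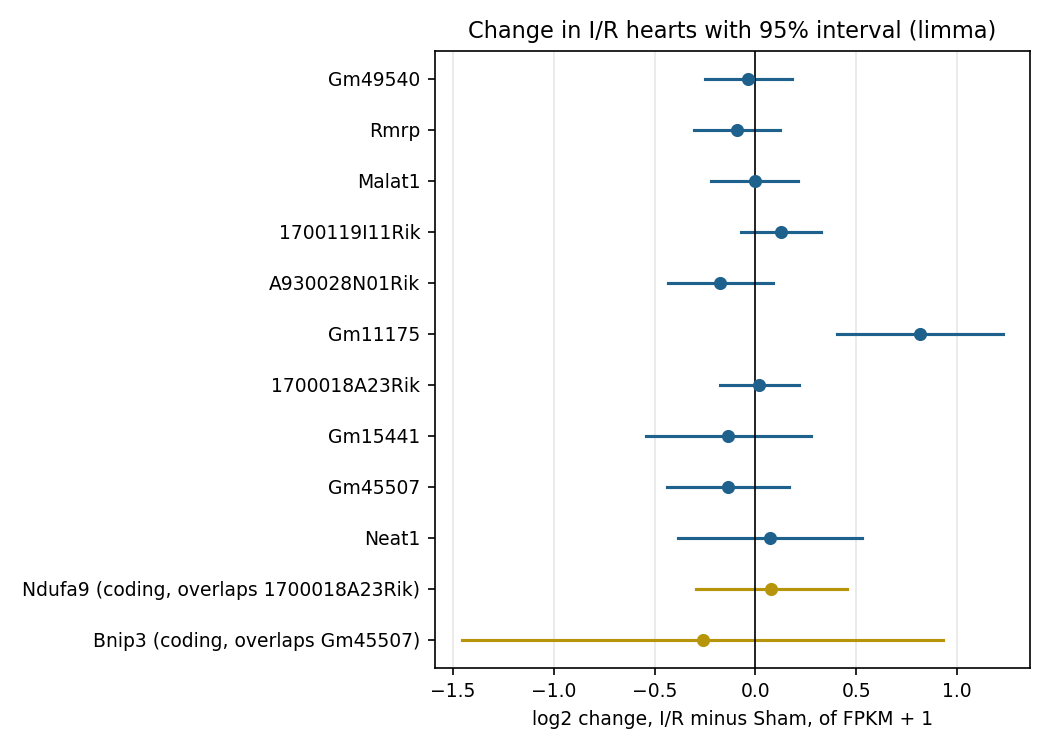
Change in I/R hearts (x, log2 of FPKM + 1, I/R minus Sham) with its 95% interval from limma for the 10 lncRNAs (blue). Yellow marks the listed transcripts of Ndufa9 and Bnip3, coding genes that each overlap 1 of the 10 lncRNAs. The interval of Gm11175 runs from 0.40 to 1.23 and those of the other 9 lncRNAs and of both coding genes include 0.

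In the order of levels, Gm49540, Rmrp, Malat1 and 1700119I11Rik were apart: each was above the next of the 10 in 6 of 6 hearts, and their ranges did not overlap. Among the 6 below 1700119I11Rik the ranges of neighbours overlapped, as did those of every other pair, although A930028N01Rik was above Gm45507 and above Neat1 in 6 of 6 hearts. A930028N01Rik was above Gm11175 in 3 of 6 hearts, Gm11175 above 1700018A23Rik in 2, 1700018A23Rik above Gm15441 in 5, Gm15441 above Gm45507 in 4 and Gm45507 above Neat1 in 4. Among the rows beside them in the order that are not of the 10, Gm13938 was above Rmrp in 3 of 6 hearts and Neat1 above the next row, Gm37401, in 3 of 6.

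The genes whose levels followed the named RNAs most closely over the 6 hearts were found among 5149 features with a mean of at least 10 FPKM, by Pearson's r of log2(FPKM + 1), given as a description. Malat1 was most like Asrgl1 (r = 0.994), Rock1, a kinase of cell contraction (r = 0.980), and Rtraf (r = 0.979). Neat1 was most like the lncRNAs Gm50315 (r = 0.976) and Gm50268 (r = 0.974) and the clock repressor Bhlhe41 (r = 0.973), which had 6.77, 15.3 and 13.0 FPKM in I/R replicates 1, 2 and 3, against 9.31, 11.2 and 8.64 FPKM in Sham replicates 1, 2 and 3. Bhlhe41 also had its lowest and its highest value in I/R hearts. Since it was picked among 5149 features for its likeness to Neat1 over 6 hearts, this adds nothing to r. For Rmrp, Clic5 (r = 0.997) and Gm11361 (r = 0.971) were among the most alike.

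Few genes of the bodies and enzymes that these RNAs belong to were listed, and none of those tested passed the adjustment. Of 20 paraspeckle protein genes 7 were listed and 6 tested, without the core proteins Sfpq, Nono and Pspc1. Of the 6, 0 had an unadjusted p under 0.05, beside 8.44% of all features. At that share a count of 0 carries little weight in the short lists of this paragraph. The median change of the 6 was −0.03, beside −0.0022 over all features. Ewsr1, an RNA-binding protein, was at 27.7 ± 1.12 FPKM in I/R and 30.8 ± 2.07 in Sham hearts (−0.15 ± 0.11). The RNA-binding protein gene Tardbp differed by 0.18 ± 0.18 and the cleavage factor gene Nudt21 by 0.06 ± 0.13. Few reads lay behind Tardbp, with 53 in I/R and 50 in Sham hearts, and Zc3h6, with 12 in I/R and 34 in Sham hearts. Of 12 genes of RNase MRP and RNase P, 3 were tested with a median of 0.07: Rpp14 at 0.07 ± 0.11, Rpp25 at 0.19 ± 0.23 and Rpp38 at −0.13 ± 0.21, and 0 had an unadjusted p under 0.05. Of 24 genes of nuclear speckles and splicing Srrm2 (−0.26 ± 0.18) and Pnn (−0.06 ± 0.19) were tested. Their median was −0.16, and 0 had an unadjusted p under 0.05. Srrm2 had only 54 reads in I/R and 72 in Sham hearts, and Rpp25 had 53 in I/R and 49 in Sham hearts.

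Of 20 genes of the Txnip axis and targets of PPAR alpha, 9 were tested, and their median change was −0.01. An unadjusted p under 0.05 was found for 0 of the 9, beside 8.44% of all features, so this count too carries little weight. Ucp3, a mitochondrial carrier, was at 39.2, 46.8 and 60.5 FPKM in I/R replicates 1, 2 and 3, against 62.8, 49.3 and 70.9 FPKM in Sham replicates 1, 2 and 3 (−0.32 ± 0.20). Ucp3 had its highest value in Sham replicate 3, as Gm15441 and Gm45507 did. A link between them was not tested, and how many other features were highest in that heart was not counted. Il1b, the gene of interleukin 1 beta, differed by 0.73 ± 0.48 and the thioredoxin gene Txn1 by 0.04 ± 0.10.

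Among 42 widely known lncRNAs, 34 were tested, of which 2 were higher (5.88%) and 4 lower (11.8%) in I/R at an unadjusted p under 0.05, beside 4.23% higher and 4.21% lower over all features, and 0 after adjustment. Their median change was −0.05. Carmn, the host transcript of microRNAs of smooth muscle, was at 107, 123 and 168 FPKM in I/R replicates 1, 2 and 3, against 235, 214 and 313 FPKM in Sham replicates 1, 2 and 3 (−0.94 ± 0.21; limma, adjusted p = 0.386). The groups did not overlap, as for Gm11175, at a level far below the 10. The summed FPKM of 5 listed smooth muscle and pericyte markers was 795 to 1131 in I/R and 810 to 1064 in Sham hearts, which overlap. Most of that sum was Rgs5, at 655 ± 108 FPKM in I/R and 645 ± 50.4 in Sham hearts. Of the 4 markers tested 2 were higher and 2 lower in I/R, and their part in the difference of Carmn was not tested. Jpx, an activator of Xist, differed by −0.48 ± 0.15, the imprinted Rian by 0.41 ± 0.15 and Dnm3os, the host of microRNAs of mesenchyme, by 0.42 ± 0.15.

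The libraries behind these values had 2213168, 2597795 and 2350913 lncRNA reads in I/R replicates 1, 2 and 3 and 2792592, 2709391 and 2025331 in Sham replicates 1, 2 and 3. The totals behind the coding FPKM were 7690040 to 8896834 reads in I/R and 7233171 to 9902397 in Sham hearts, and the listed coding transcripts held 36.8% to 39.9% of them, so coding and lncRNA levels are not on 1 scale. Of 10 ventricular cardiomyocyte markers 9 were listed, not all of them at high levels. Tnni3 was at a mean of 0.733 FPKM in I/R and 1.59 in Sham hearts. The 9 had a summed level of 9518 to 10406 FPKM in I/R and 9509 to 10163 in Sham hearts. Nearly all of that sum was the fatty acid binding protein gene Fabp3, at 9535 ± 444 FPKM in I/R and 9421 ± 393 in Sham hearts, so the sums do not show the lower values of other markers given beside Gm11175. Markers of lymphocytes summed to at most 1.05 FPKM in I/R and 0.996 in Sham hearts and those of adipocytes to at most 0.263 in I/R and 0.606 in Sham hearts.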

How the data were processed

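RNA of 6 mouse hearts was sequenced. HTSeq 0.10.0, HISAT2 2.1.0, fastp 0.23.0 and bcl2fastq 2.19.1.403 are tools listed in the submitters' processing notes, which also list GRCm38, mm10 and GRCm39. The annotation and the strand setting are not stated. The authors deposited FPKM per transcript in 21198 rows, of which 40 repeats were dropped. Coordinates are those of the table, which overlap the RefSeq GRCm38.p6 spans for 8480 of 8485 coding genes matched by symbol.

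Reads were recovered from the FPKM, whose steps correspond to whole reads (within 0.001 reads, 100.0% of 9413 lncRNA and 11745 coding rows). FPKM of a gene's coding transcripts were summed. Features with a mean of at least 0.5 FPKM were fitted as log2(FPKM + 1) with limma 3.58.1 in R 4.3.3 (group only, variance trend, two-sided, Benjamini-Hochberg adjustment over 12114 features, threshold 0.05). This scale understates changes of low genes. Other steps used scipy 1.17.1, pandas 2.3.3, numpy 2.4.6 and, for figures, matplotlib 3.10.9 in Python 3.11.15. Both procedures were tested on simulated data. Alternatives were other pseudocounts, filters, scalings and variance models, voom, a replicate block, lncRNAs alone and each heart left out. Named are the 10 lncRNAs, their overlapping or nearest listed coding genes, their neighbours in rank, the 3 features most like Malat1, Neat1 and Rmrp, and up to 4 members per list by unadjusted p. Members and lists were chosen with earlier results of these data known. The gene symbols are those of the table. A few of the genes this rule names are not reported here.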

Additional observations from a re-analysis of the deposited data

How the results depend on the processing

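No feature had an adjusted p under 0.05 in the main analysis or under any of the 15 alternatives, and so no change of the 10 lncRNAs passed the threshold in any. At an unadjusted p under 0.05 there were 1023 features, 640 with a filter at 5 FPKM and 572 among lncRNAs fitted alone, which test fewer features. After quantile normalization the change was exactly 0 for Gm49540, Malat1 and 1700119I11Rik, because each holds 1 rank in all hearts, and −0.0545 for Neat1. With 1 heart left out, changes ranged from −0.0492 to 0.0750 for Malat1, −0.0967 to 0.273 for Neat1, −0.103 to 0.0077 for Gm49540, −0.0311 to 0.0572 for 1700018A23Rik and −0.249 to 0.0571 for Gm15441, and so the direction of these 5 turned. It did so without I/R replicate 2 for Malat1, Neat1 and Gm49540, without Sham replicate 1 for Malat1 and 1700018A23Rik, without I/R replicate 1 for 1700018A23Rik and without Sham replicate 3 for Gm15441. The difference of the log2 ratio of Neat1 to Malat1 ranged from −0.172 to 0.313, turning without I/R replicate 2. Rmrp, 1700119I11Rik, A930028N01Rik, Gm11175 and Gm45507 kept their direction without each heart. The 10 lncRNAs held 32.9% of lncRNA FPKM on average but 40.6% of reads, since FPKM divide by length. With no filter the median of the speckle list, then of 4 genes, was 0.0204. The labels do not say whether replicate numbers pair the hearts. Same-numbered hearts had correlations of 0.15, 0.03 and 0.03 in their deviations from the group means. Those of differently numbered hearts ran from −0.14 to 0.11. With the replicate block 0 features were called after adjustment and 1125 had an unadjusted p under 0.05, and the change of Gm11175 was 0.82 (limma, adjusted p = 0.335). The block took the SE of Gm11175 from 0.17 to 0.09 and that of Rmrp from 0.09 to 0.11. Counting error is small for these RNAs, and the 3 hearts per group set the precision.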

Other observations

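Jun, the gene of another AP-1 factor, and the lncRNA Junos at the same locus were looked at after the values of Gm11175, which lies inside Jund, were seen. Junos was at 1842, 4358 and 4085 FPKM in I/R replicates 1, 2 and 3, against 1383, 2169.7 and 2049 FPKM in Sham replicates 1, 2 and 3 (0.80 ± 0.35, limma, adjusted p = 0.595). Jun was at 512, 1117 and 1129 FPKM in I/R replicates 1, 2 and 3, against 388, 640.1 and 532 FPKM in Sham replicates 1, 2 and 3 (0.76 ± 0.34, limma, adjusted p = 0.598). In both, I/R replicate 1 lay within the Sham range, whereas for Gm11175 it lay above every Sham heart. I/R replicate 1 was also the lowest of the I/R hearts for Gm11175. Sham replicate 2 was the highest Sham heart for all 3 RNAs.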
